A study of Homo sapiens with 4 samples.

Results

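The 10 genes described here, CDKN1A, GDF15, MDM2, SESN1, TP53I3, RRM2B, ZMAT3, BTG2, FAS and TP53INP1, are established transcriptional targets of the tumour suppressor p53. They were picked by symbol from the 19215 genes of the expression table that the authors deposited. The cells were C28/I2, an immortalised human chondrocyte line. Cells of 1 group received 25 ng/mL of FABP4, a fatty acid-binding protein that adipocytes secrete, for 48 h, and cells of the other group 0.5% DMSO for 48 h. Each group has 2 RNA-seq libraries, and whether FABP4 was given together with DMSO is not stated in the labels. All libraries share the line and a medium with serum, and nothing in the labels says that replicates are separate cultures, so the p-values reflect only how these libraries vary, which may be technical.

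p53 is a transcription factor that is held at a low level by the ubiquitin ligase MDM2 and accumulates after DNA damage and other stresses. It then binds paired half-sites in DNA and switches on genes that stop the cell cycle, repair DNA, change metabolism or start apoptosis. One of its targets is MDM2 itself, which closes a feedback loop. In chondrocytes CDKN1A and other p53 targets are known as markers of stress and senescence. C28/I2 was immortalised with the SV40 large T antigen, a viral protein that binds p53, which limits the line as a model of the p53 response.

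The sites that p53 reads were looked for in RefSeq promoter sequences (GRCh38.p14), which cover 250 bases before to 50 bases after each start site. The p53 consensus was searched as 2 half-sites of 10 bases with no spacer, keeping the central C and G of each half-site and allowing at most 3 mismatches in 20 bases. It reads the same on both strands, so 1 scan covers both. A match was held by 4 of the 8 genes that have a RefSeq promoter entry (GDF15, MDM2, SESN1 and FAS), against 1.37% of 27305 genes. With at most 2 mismatches the genes were MDM2 and FAS, against 0.359% of all genes. MDM2, SESN1, FAS and ZMAT3 have more than 1 start site in the table and so more than 1 window. The mismatch limit and the spacer rule were set after the matches in these promoters had been seen. RRM2B and TP53INP1 have no entry. The 4 matches are printed as letters close to the p53 consensus, without binding data from these cells, with the match in capitals and the flanking bases, where shown, in lower case.
MDM2: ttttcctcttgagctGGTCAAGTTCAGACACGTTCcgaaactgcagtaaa
SESN1: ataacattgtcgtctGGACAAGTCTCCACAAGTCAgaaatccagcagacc
FAS: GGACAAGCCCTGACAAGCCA
GDF15: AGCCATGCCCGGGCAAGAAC

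The MDM2 match lies at chr12:68808923-68808942 on the plus strand, within an intron of the longer MDM2 transcripts, and starts 101 bases before an internal start site. It has 2 mismatches. The SESN1 match, with 3 mismatches, lies at chr6:109009018-109009037 on the minus strand, in an intron and 49 bases before a start site. The FAS match, with 2 mismatches, lies at chr10:88991309-88991328 on the plus strand, 122 bases before a start site. GENCODE 29 annotates it within an exon of a FAS transcript. The GDF15 match, with 3 mismatches, lies at chr19:18386186-18386205 on the plus strand, in an exon, and starts at base 29 after the start site. It overlaps an annotated untranslated region. How much of it is coding sequence was not determined, and the match holds the letters ATG. The windows of CDKN1A, TP53I3, ZMAT3 and BTG2 held no match, which says only that these letters are not in those windows.

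None of the 10 p53 target genes passed the test between FABP4 and DMSO. GDF15, a secreted stress cytokine, had the largest difference. It stood at 0.615 times the DMSO level and just missed the threshold. TP53INP1, an inducer of apoptosis and autophagy, stood at 1.41 times its control level. MDM2, SESN1, TP53I3 and BTG2 stood at 1.16 to 1.22 times theirs, and CDKN1A, RRM2B, ZMAT3 and FAS at 0.922 to 1.01 times. Levels are in FPKM, a fragment count scaled to transcript length and library size, so they can be compared between genes. The test was limma on log2(FPKM + 1), called at a Benjamini-Hochberg adjusted p of 0.05 over 12490 genes that reached 1 FPKM in at least 2 libraries. All 10 genes reached 1 FPKM in every library. In that fit 0.592% of tested genes passed, 0.296% higher and 0.296% lower with FABP4.

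The plot of differences shows how the 10 genes lay around 0. In limma 1 of them (TP53INP1) was higher and 1 (GDF15) lower at an unadjusted p under 0.05, where 5.68% of tested genes were higher and 4% lower. The 2 FABP4 libraries both lay above the 2 DMSO libraries in 5 genes (MDM2, SESN1, TP53I3, BTG2 and TP53INP1), as in 20.7% of tested genes. They both lay below in 1 gene (GDF15), as in 16.1% of tested genes. With 2 libraries a group, an exact two-sided permutation test of a single gene cannot go below p = 0.333. The median log2 fold change of the 10 genes was 0.10, with 8 above 0 and 2 below, beside 0.014 over all tested genes, of which 54.0% were above 0. The split was 5 and 5 after rescaling to equal totals or by median-of-ratios factors, since FAS, RRM2B and ZMAT3 lay near 0.

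**Figure D1:**
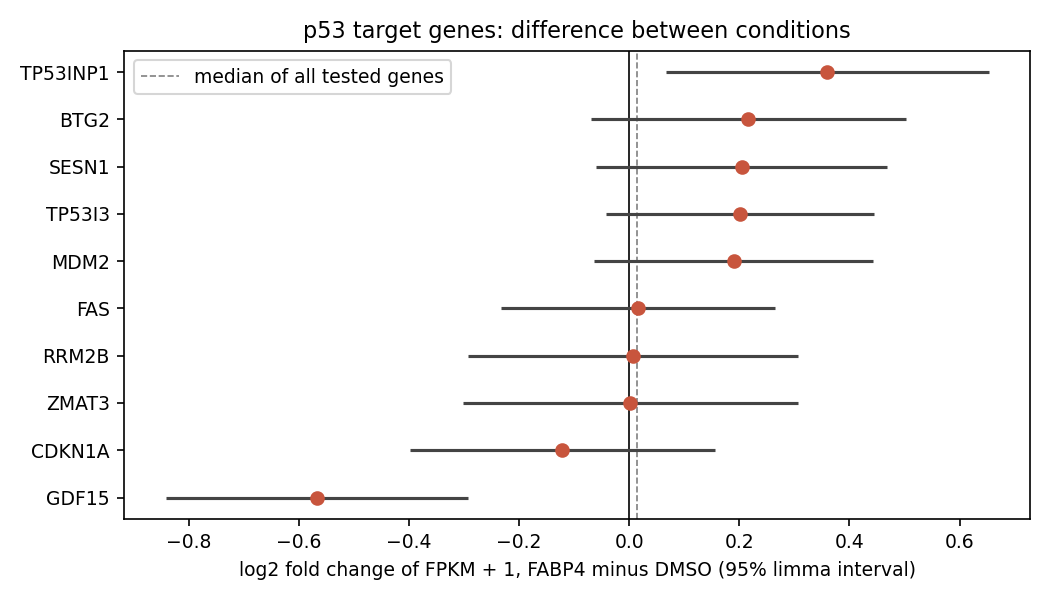
Log2 fold change of FPKM + 1 (FABP4 minus DMSO) of the 10 p53 target genes; points are limma estimates from 2 libraries a group and bars their 95% intervals, with the median of all tested genes as a dashed line. GDF15 (-0.57) and TP53INP1 (0.36) have intervals that leave out 0 before adjustment, and neither passes an adjusted p of 0.05.

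The libraries rest on an estimated 11175000 to 12750000 fragments, read from the steps of low FPKM values, so 1 FPKM of a transcript of 1 kilobase stands for about 11.2 to 12.8 fragments. Any pair of libraries had a Pearson r of 0.991 to 0.994 across the log2 levels of tested genes, which are not independent replicates. The chondrocyte markers were partly absent. Of 11 such genes 3 reached 1 FPKM in at least 2 libraries (ACAN, SOX9 and COL11A2), COL9A1 was listed at 0 in all 4 libraries, and COL2A1 stayed at or under 0.05 FPKM. Their summed level was 16.7 to 19.4 FPKM with FABP4 and 19.2 to 19.7 FPKM with DMSO. The 7 fibroblast markers summed to 1214 to 1676 and 1375 to 1546 FPKM, carried by COL1A1 and COL1A2, which immortalised chondrocytes in culture also express. The 5 leukocyte markers summed to 147 to 154 and 150 to 171 FPKM, almost all of it CD68, with PTPRC at or under 0.08 FPKM. The 4 epithelial markers summed to at most 0.53 FPKM. The 5 adipocyte markers summed to 2.24 to 2.50 FPKM with FABP4 and 3.41 to 3.48 FPKM with DMSO, with ADIPOQ at 0 throughout. The lower adipocyte sum came from the FABP4 transcript itself, at 1.03 and 0.56 FPKM with FABP4 and 2.1 and 1.93 FPKM with DMSO. CIDEC went slightly the other way (1.28 and 1.16 against 1.13 and 1.01 FPKM), and PLIN1 overlapped (0.19 and 0.49 against 0.18 and 0.54 FPKM). In these bulk libraries, fewer cells expressing a gene and less RNA per cell cannot be told apart.

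Levels of the 10 genes in control cells spanned the range from ZMAT3 to CDKN1A. CDKN1A was the highest, at 97.5 and 104.38 FPKM in DMSO replicates 1 and 2, above 92.6% of tested genes by its mean over the 4 libraries. It made up 53.8% to 59.7% of the summed FPKM of the 10 genes in a library. TP53I3, FAS and MDM2 followed, each with a range in DMSO that was apart from those of its neighbours. GDF15, RRM2B and SESN1 came next, and these neighbours in the order had overlapping ranges, between 4.27 and 5.46 FPKM. BTG2 and TP53INP1 also overlapped, between 1.96 and 2.71 FPKM, and ZMAT3 was lowest at 1.67 and 1.89 FPKM. With FABP4 the first 4 places were the same, while GDF15 stood below SESN1 and RRM2B, in a range that overlapped that of TP53INP1.

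**Figure D2:**
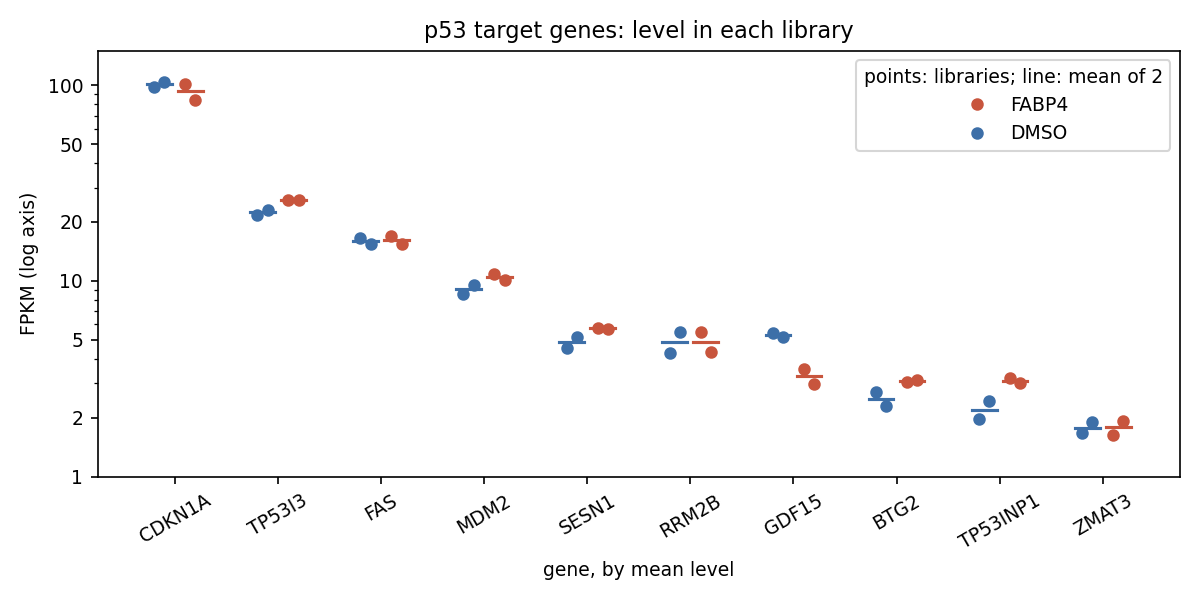
FPKM on a log axis of the 10 p53 target genes in each library; points are single libraries, lines the mean of 2, blue for DMSO and red for FABP4, and genes are ordered by their mean over the 4 libraries. The groups are apart for GDF15 (FABP4 lower) and for MDM2, SESN1, TP53I3, BTG2 and TP53INP1 (FABP4 higher); the other 4 genes overlap.

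MDM2 (gene ID 4193, chromosome 12, 68808176 to 68850686, GRCh38), the ubiquitin ligase that p53 induces and that degrades p53, had 10.87 and 10.1 FPKM in FABP4 replicates 1 and 2 and 8.57 and 9.58 FPKM in DMSO replicates 1 and 2. The FABP4 libraries were both above the DMSO libraries, and the DMSO libraries differed more from each other than the nearest libraries of the 2 groups. The mean was 10.5 ± 0.544 against 9.07 ± 0.714 FPKM (SD, n = 2 each). The log2 fold change was 0.19 (95% interval -0.06 to 0.44, limma adjusted p = 0.703). Of 60 windows of 50 bases along its longest transcript 6.67% also occur in another gene. Its relative MDM4, which binds p53 without degrading it, had 5.21 and 6.21 FPKM with FABP4 against 5.13 and 4.49 FPKM (log2 fold change 0.21, limma adjusted p = 0.705).

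CDKN1A (gene ID 1026, chromosome 6, 36676460 to 36687339, GRCh38) encodes p21, the inhibitor of cyclin-dependent kinases through which p53 stops cells before S phase. It had 101.75 and 84.37 FPKM in FABP4 replicates 1 and 2 and 97.5 and 104.38 FPKM in DMSO replicates 1 and 2. The groups overlap, and the FABP4 libraries differ more from each other than the DMSO libraries do. The mean was 93.1 ± 12.3 against 101 ± 4.86 FPKM (SD, n = 2 each). The log2 fold change of -0.12 had a 95% interval of -0.40 to 0.16 (limma adjusted p = 0.901), or 0.759 to 1.11 as a ratio of FPKM + 1. Its sign depended on 1 library: without FABP4 replicate 2 it was 0.012.

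Cyclins and their kinases are what p21 binds, and partners of this kind were read beside it. CCND1, the gene of cyclin D1, had 45.31 and 46.07 FPKM in FABP4 replicates 1 and 2 and 67.91 and 69.38 FPKM in DMSO replicates 1 and 2. Both FABP4 libraries were far below both DMSO libraries. CCND1 fell to 0.666 times the control level (log2 fold change -0.58, SE 0.12, limma adjusted p = 0.0307). CCND1 no longer passed when DMSO replicate 1 (limma adjusted p = 0.0838) or 2 (limma adjusted p = 0.1504) was left out, with the replicate block (limma adjusted p = 0.125), after quantile normalization (limma adjusted p = 0.0900) or without the filter on low values (limma adjusted p = 0.460), which makes 5 of 14 alternatives. Over all alternatives its limma adjusted p ran from 8.4e-05, with a crossed replicate block chosen after seeing the data, to 0.460. CDK2, the kinase that p21 blocks, had 46.54 and 43.29 FPKM against 48.33 and 51.11 FPKM (log2 fold change -0.14, limma adjusted p = 0.828).

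BTG2 (gene ID 7832, chromosome 1, 203305491 to 203309602, GRCh38), an antiproliferative protein that recruits the mRNA deadenylation complex, had 3.03 and 3.1 FPKM in FABP4 replicates 1 and 2. DMSO replicates 1 and 2 had 2.71 and 2.3 FPKM. The FABP4 libraries were close to each other and above both controls. The mean was 3.06 ± 0.0495 against 2.50 ± 0.290 FPKM (SD, n = 2 each), with a log2 fold change of 0.22 (95% interval -0.07 to 0.50, limma adjusted p = 0.699). Its paralog BTG1 had 6.16 and 5.22 FPKM with FABP4 against 6.58 and 7.2 FPKM (log2 fold change -0.24, limma adjusted p = 0.587).

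Genes of cell death came next. FAS (gene ID 355, chromosome 10, 88990582 to 89015785, GRCh38), the death receptor, had 16.98 and 15.35 FPKM in FABP4 replicates 1 and 2 and 16.52 and 15.41 FPKM in DMSO replicates 1 and 2. The groups overlap fully, with a log2 fold change of 0.016 and a 95% interval of -0.23 to 0.26 (limma adjusted p = 0.992). Exons of FAS overlap those of ACTA2 on the other strand over 380 bases, and whether counting used strand is not given in the sources used here. Exons of MDM2, SESN1, CDKN1A and TP53I3 also overlap another gene, by at most 785, 363, 146 and 80 bases, so reads there may be shared. CASP8, the caspase that the receptor activates, had 6.04 and 5.92 FPKM against 6.04 and 6.1 FPKM (limma adjusted p = 0.990). FASLG, the ligand of the receptor, was listed at 0 in both FABP4 libraries and DMSO replicate 1 and had 0.1 FPKM in DMSO replicate 2.

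TP53INP1 (gene ID 94241, chromosome 8) had 3.18 and 3 FPKM in FABP4 replicates 1 and 2 and 1.96 and 2.43 FPKM in DMSO replicates 1 and 2. Both FABP4 libraries were above both DMSO libraries. The mean was 3.09 ± 0.127 against 2.19 ± 0.332 FPKM (SD, n = 2 each). The log2 fold change was 0.36 (95% interval 0.07 to 0.65, limma unadjusted p = 0.0190, adjusted p = 0.343). It stayed above 0 in all 13 alternatives in which the gene was tested, from 0.25 without DMSO replicate 1 to 0.48 with an offset of 0.1 FPKM, and passed in none of them.

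TP53INP2, the paralog of TP53INP1 that acts in autophagy, had 13.89 and 13.53 FPKM with FABP4 and 10.15 and 9.39 FPKM with DMSO. Its groups did not overlap either, and the log2 fold change was 0.45 (limma unadjusted p = 0.00126, adjusted p = 0.103). TP53I3 (gene ID 9540, chromosome 2, 24077433 to 24085861, GRCh38), a quinone oxidoreductase gene linked to oxidative stress in apoptosis, had 25.77 and 26.02 FPKM in FABP4 replicates 1 and 2 and 21.74 and 23.06 FPKM in DMSO replicates 1 and 2. The FABP4 libraries agree closely and lie above both controls. The mean was 25.9 ± 0.177 against 22.4 ± 0.933 FPKM (SD, n = 2 each), a log2 fold change of 0.20 (95% interval -0.04 to 0.44, limma adjusted p = 0.648).

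SESN1 and RRM2B are the members with roles in metabolism and repair. SESN1 (gene ID 27244, chromosome 6, 108986437 to 109094819, GRCh38), a sestrin that lowers mTORC1 activity under stress, had 5.77 and 5.7 FPKM in FABP4 replicates 1 and 2 and 4.53 and 5.18 FPKM in DMSO replicates 1 and 2. Both FABP4 libraries were above both DMSO libraries, with a log2 fold change of 0.20 (95% interval -0.06 to 0.47, limma adjusted p = 0.689). SESN2, which responds to ATF4 as well as to p53, had 9.04 and 9.46 FPKM against 9.21 and 9.01 FPKM (log2 fold change 0.020, limma adjusted p = 0.989). SESN3 stayed at or under 0.63 FPKM in every library.

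RRM2B (gene ID 50484, chromosome 8), the p53-induced small subunit of ribonucleotide reductase that supplies nucleotides for repair, had 5.47 and 4.31 FPKM in FABP4 replicates 1 and 2 and 4.27 and 5.46 FPKM in DMSO replicates 1 and 2. Each group held 1 high and 1 low library, so the means were 4.89 ± 0.820 and 4.87 ± 0.841 FPKM (SD, n = 2 each). The 95% interval of its log2 fold change was -0.29 to 0.31 (limma adjusted p = 0.998). The S-phase subunit RRM2 was far higher, at 128.52 and 114.57 FPKM with FABP4 and 121.68 and 138.77 FPKM with DMSO (limma adjusted p = 0.932). The large subunit RRM1 had 40.41 and 37.94 FPKM against 40.68 and 42.79 FPKM (limma adjusted p = 0.930).

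ZMAT3 (gene ID 64393, chromosome 3, 179017223 to 179072279, GRCh38), a zinc finger protein that binds RNA and regulates splicing, had 1.64 and 1.93 FPKM in FABP4 replicates 1 and 2 and 1.67 and 1.89 FPKM in DMSO replicates 1 and 2. The groups overlap, and the 95% interval of the log2 fold change was -0.30 to 0.31 (limma adjusted p = 0.999). It was the lowest of the 10 genes in FPKM. These intervals for RRM2B and ZMAT3 leave room for differences of about the size seen in MDM2, SESN1, TP53I3 and BTG2.

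GDF15 (gene ID 9518, chromosome 19, 18374731 to 18389176, GRCh38), a secreted member of the TGF-beta superfamily that cells release under stress, had 3.53 and 2.97 FPKM in FABP4 replicates 1 and 2 and 5.43 and 5.14 FPKM in DMSO replicates 1 and 2. Both FABP4 libraries were well below both DMSO libraries. At the estimated depths and the length of its longest GENCODE transcript these levels stand for about 39 and 31 fragments with FABP4 and 63 and 62 with DMSO, the fewest of the 10 genes. The mean was 3.25 ± 0.396 against 5.29 ± 0.205 FPKM (SD, n = 2 each). The log2 fold change was -0.57 (SE 0.13, 95% interval -0.84 to -0.29, limma unadjusted p = 4.33e-04, adjusted p = 0.0605). It was below 0 in all 14 alternatives, from -0.69 to -0.47, and the gene passed in 5 of them. Over the 14 the limma adjusted p ranged from 0.00566, with a crossed replicate block chosen after seeing the data, to 0.586. The 5 were a filter of 5 FPKM (limma adjusted p = 0.0187), equal totals (limma adjusted p = 0.0177), robust variance moderation (limma adjusted p = 0.0190), the crossed replicate block (limma adjusted p = 0.00566) and FABP4 replicate 1 left out (limma adjusted p = 0.0365).

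**Figure D3:**
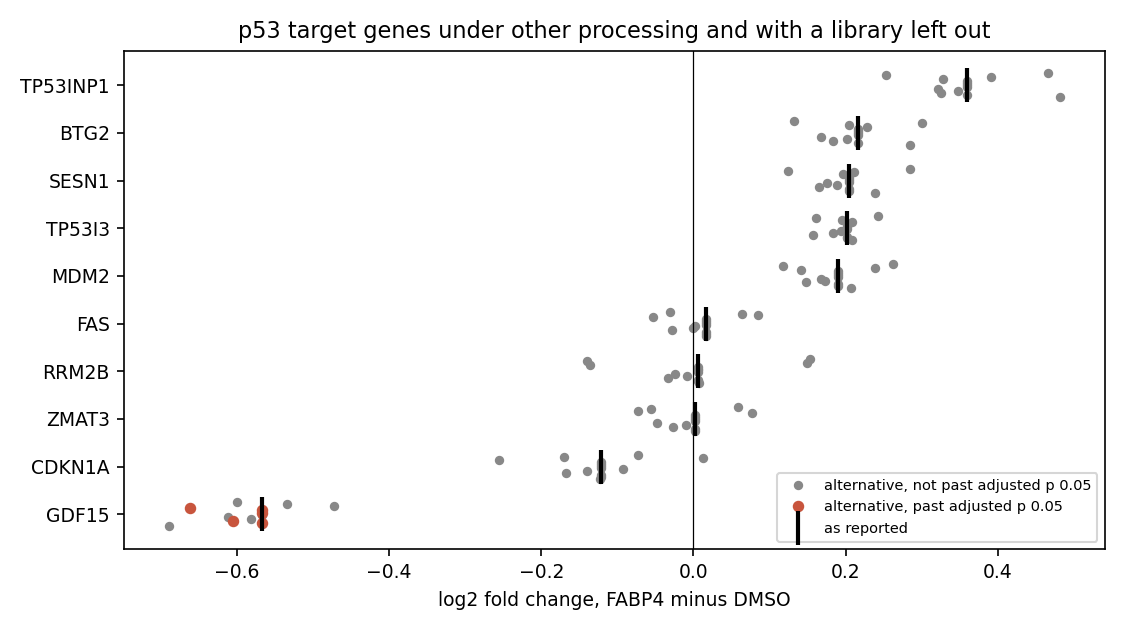
Log2 fold change (FABP4 minus DMSO) of the 10 p53 target genes under each alternative processing and with each library left out; the black mark is the value as reported and red points passed an adjusted p of 0.05. Red points occur in GDF15, in 5 of 14 alternatives, and FAS, RRM2B, ZMAT3 and CDKN1A have points on both sides of 0.

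The authors' deposited table holds their own DESeq2 comparison, in which ZMAT3 had the opposite sign to the limma fit and the other 9 genes the same sign. In the authors' deposited table GDF15 had a log2 fold change of -0.75 (p = 0.0187, q = 0.583), TP53INP1 0.38 (p = 0.0474, q = 0.836) and MDM2 0.22 (p = 0.0475, q = 0.836). The other 7 genes had p values of 0.115 to 0.969 in the authors' deposited table, and none of the 10 had a q under 0.05. An unadjusted p under 0.05 occurred in 5.82% of the 18019 genes with a p in the authors' deposited table.

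GDF15 is also induced by the integrated stress response, the pathway in which ATF4 turns on genes of amino acid supply, so 12 of its genes were looked at beside it. CHAC1, a glutathione-degrading enzyme gene and ATF4 target, fell and was the only gene of the 12 to pass. It had 7.47 and 7.61 FPKM in FABP4 replicates 1 and 2 and 11.59 and 12.51 FPKM in DMSO replicates 1 and 2, without overlap. The log2 fold change was -0.61 (SE 0.12, limma adjusted p = 0.0222). CHAC1 no longer passed when FABP4 replicate 1 (limma adjusted p = 0.0547), FABP4 replicate 2 (0.0532) or DMSO replicate 2 (0.0853) was left out, with the replicate block (0.0635), after quantile normalization (0.0657) or without the filter on low values (0.482), which makes 6 of 14 alternatives. Over all alternatives its limma adjusted p ran from 3.05e-04, with a crossed replicate block chosen after seeing the data, to 0.482. The 12 genes had a median log2 fold change of -0.077, with 4 above 0 and 8 below. At an unadjusted p under 0.05 none was higher and 4 were lower in limma, where 4% of tested genes were lower. These were CHAC1 and, named after their values were seen, TRIB3, ASNS and PSAT1, at 0.794, 0.830 and 0.815 times their control levels (limma adjusted p = 0.413, 0.459 and 0.462). Other genes of the list, also named after their values were seen, did not fall in this way. ATF4 itself stood at 0.959 times its control level (limma adjusted p = 0.968). DDIT3, ATF3 and VLDLR stood at 1.11, 1.25 and 1.06 times theirs (limma adjusted p = 0.861, 0.855 and 0.979). Whether this pathway bears on the level of GDF15 was not tested.

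Other direct p53 targets lay on both sides of 0. Of 69 tested genes of 73 in the wider list none passed in limma, where 0.592% of all tested genes passed. In limma 7 were higher and 6 lower at an unadjusted p under 0.05, beside 5.68% and 4% of all tested genes. The median log2 fold change was -0.0092 (32 above 0, 37 below), beside 0.014 over all tested genes, of which 54.0% were above 0. The 48 tested genes of arrest, repair and metabolism had a median of -0.0097. SFN, the 14-3-3 sigma gene that holds cells in G2, had 7.82 and 7.12 FPKM against 10.56 and 9.64 FPKM (log2 fold change -0.39, limma adjusted p = 0.194). TRIM22, a gene also induced by interferon, had 16.8 and 16.66 FPKM against 12.61 and 12.93 FPKM (log2 fold change 0.36, limma adjusted p = 0.208).

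In the 21 tested genes of apoptosis and autophagy the median was -0.0030, and the BH3-only genes BBC3 and PMAIP1 lay on opposite sides of 0. BBC3, which encodes PUMA, had 5.15 and 4.54 FPKM with FABP4 and 3.79 and 3.38 FPKM with DMSO (log2 fold change 0.35, limma adjusted p = 0.316). PMAIP1, which encodes NOXA, had 26.88 and 22.07 FPKM against 27.84 and 35.07 FPKM (log2 fold change -0.35, limma adjusted p = 0.352). ULK1, the kinase that starts autophagy, had 19.88 and 22.22 FPKM against 17.79 and 15.89 FPKM (log2 fold change 0.31, limma adjusted p = 0.352).

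**Figure D4:**
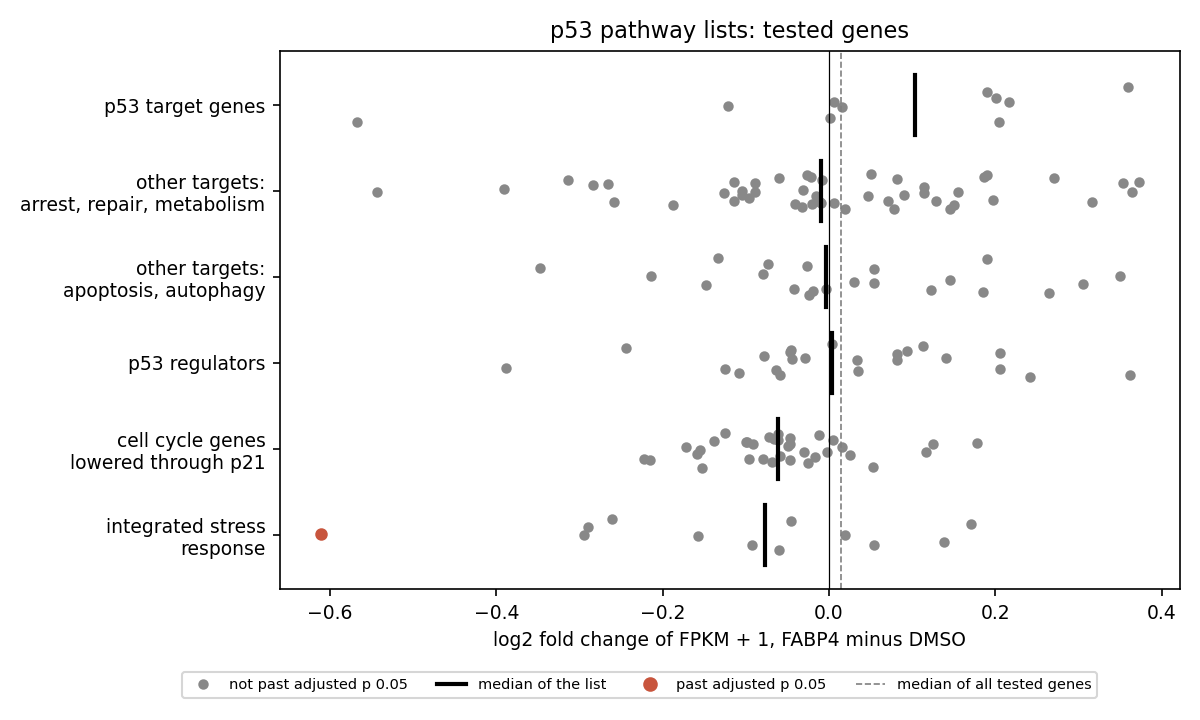
Log2 fold change of FPKM + 1 (FABP4 minus DMSO) of every tested gene in 6 lists. The integrated stress response list is that of the ATF4 pathway and not of p53. Each point is a gene, the thick line the median of the list and the dashed line the median of all tested genes. CHAC1 in the integrated stress response list is the only point past an adjusted p of 0.05, and the cell cycle genes lie mostly a little below 0 (median -0.061).

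Of 23 tested regulators of p53 none passed in limma, where 0.592% of all tested genes passed. In limma 2 were higher and 1 lower at an unadjusted p under 0.05, beside 5.68% and 4% of all tested genes. The median log2 fold change was 0.0038, beside 0.014 over all tested genes. CHEK2, a kinase that activates p53 after DNA breaks, had 12.01 and 11.02 FPKM with FABP4 and 8.67 and 8.79 FPKM with DMSO (log2 fold change 0.36, limma adjusted p = 0.224). PPP1R13L, the inhibitor of p53 called iASPP, had 30.21 and 36.68 FPKM against 46.56 and 41.39 FPKM (log2 fold change -0.39, limma adjusted p = 0.233).

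Genes that p53 lowers indirectly, through p21 and the DREAM repressor complex, were compared as well. None of 35 passed in limma and none had an unadjusted p under 0.05, where 5.68% of tested genes were higher and 4% lower. Their log2 fold changes ran from -0.22 to 0.18 with a median of -0.061, and 28 lay below 0 and 7 above. The median over all tested genes was 0.014, with 54.0% above 0. The groups did not overlap in 8 lower and 2 higher genes of the 35, beside 16.1% and 20.7% of tested genes. Whether these genes vary separately from each other was not tested. The smallest p values were those of PRC1, a mitotic spindle gene, with 64.69 and 61.67 FPKM against 69.44 and 77.71 FPKM (limma adjusted p = 0.647), of CKS1B, a subunit of cyclin-dependent kinases (log2 fold change -0.22, limma adjusted p = 0.726), and of the phosphatase gene CDC25C (log2 fold change 0.18, limma adjusted p = 0.743).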

How the data were processed

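The 4 libraries, 2 of FABP4 and 2 of DMSO, come from C28/I2 total RNA and were grouped by their treatment label. Per the file headers, the deposited values are FPKM, 1 column a library. Further columns give a log2 fold change with a DESeq2 p-value and q-value made by the authors, per the file headers. The submitters' processing notes name RSEM 1.2.12, Bowtie2 2.2.5 and DESeq2 1.4.5, with GRCh38.p13 as the build and no role for any tool. Which annotation, filters and strand setting were used is not given in the sources used here. All genes of the table that reached 1 FPKM in at least 2 libraries were fitted with limma 3.58.1 in R 4.3.3 on log2(FPKM + 1), with variance moderation along the mean; such fold changes understate the change of low genes. The fit was run on simulated data with independent normal noise of the size limma estimated, which cannot test whether real libraries vary that way. Log2 changes of 1 were recovered in 100% of changed genes and of 0.5 in 61.2%, with 3.45% of calls false. Smaller changes were not simulated. The depth estimate was also tested on simulated data. Depth was estimated from single-exon genes whose low FPKM come in steps of 1 fragment; 65.9% to 72.9% of 85 to 118 values per library lay within 0.15 of a whole number, where values spread evenly would give 30%; the depth was chosen to raise that share. Coordinates are those of GENCODE 29 (GRCh38). The 10 genes and the lists were chosen with earlier results of these data known. Named are the 10 genes, genes of a list that passed or otherwise its 3 smallest p values, and partners of the 10 genes, picked after their values were seen; some genes of the lists are not reported here. A wider search for p53 sites was planned but was limited to the RefSeq promoters, and 14 alternatives were run.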

Additional observations from a re-analysis of the deposited data

How the results depend on the processing

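In limma 74 genes of the whole table passed. The count was 61 to 71 with an offset of 0.1 FPKM, median-of-ratios scaling or no variance trend; how many genes these share with the 74 was not counted. The count was 0 without the filter on low values, 10 after quantile normalization, 151 with a filter of 5 FPKM, 180 with equal totals (65 higher, 115 lower), 164 with robust variance moderation and 49 to 150 with a library left out. The replicate numbers in the titles are not said to pair the libraries. With them as a replicate block 47 genes passed and none of the 10 p53 target genes. Same-numbered libraries deviated from their group means with a correlation of -0.12, and a crossed replicate block, chosen after seeing the data, gave 418 calls over all genes, 1 among the 10 genes, 6 among the wider targets and 1 among the regulators.

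Among the 10 genes the count was 1 (GDF15) with a filter of 5 FPKM, equal totals or robust variance moderation, and 0 to 1 with a library left out. Among the wider targets it was 1 with a filter of 5 FPKM or equal totals, and 0 to 1 with a library left out. The cause was not tested. The median log2 fold change of the 10 genes was 0.016 with a filter of 5 FPKM, which leaves 7 of them, 0.060 with equal totals and 0.090 to 0.17 with a library left out, the highest without FABP4 replicate 2.

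Signs turned in genes near 0. With equal totals the log2 fold change was -0.033 for RRM2B, -0.027 for ZMAT3, -0.028 for FAS and -0.022 for SESN2. With median-of-ratios scaling it was -0.0082 for RRM2B, -0.0095 for ZMAT3 and -0.0011 for FAS, and after quantile normalization -0.024 for RRM2B and -0.048 for ZMAT3. With a library left out it ranged from -0.26 to 0.012 for CDKN1A, -0.14 to 0.15 for RRM2B, -0.073 to 0.077 for ZMAT3, -0.052 to 0.085 for FAS and -0.0100 to 0.049 for SESN2. MDM2, SESN1, TP53I3, BTG2, TP53INP1 and GDF15 kept their direction in every alternative in which they were tested. Depth limits GDF15 most, at about 31 to 63 fragments a library.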
